A study of Capra hircus with 6 samples.

Results

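The genes described are 10 markers of skin macrophages and of Langerhans cells, taken from a list of symbols and found in the deposited table by gene name: 10 of 10 were present, among 26951 named genes. Of these, 9 mark macrophages or belong to complement C1q (LOC102183943, CD14, CSF1R, CD68, C1QA, C1QB, C1QC, AIF1 and MARCO) and 1, CD207, marks Langerhans cells. LOC102183943 carries no symbol, and its description in the table, scavenger receptor cysteine-rich type 1 protein M130, is the protein name of CD163. RNA depleted of ribosomal RNA was sequenced from skin with its hair follicles, taken from crosses of Boer and Macheng Black goats whose heads are black and bodies white. There were 3 libraries of black-coated skin, numbered 1 to 3, and 3 of white-coated skin, numbered 4 to 6, with no treatment named for either. The labels give neither the body site nor the number, age or sex of the animals, so coat colour and body site cannot be told apart, and the p-values reflect how far these samples spread, in part perhaps for technical reasons.

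Macrophages are resident phagocytes of the dermis that take up dying cells and debris, and their survival depends on signals through the receptor CSF1R. Macrophages are also a main source of C1q, the protein that starts the classical complement cascade and is built from equal numbers of A, B and C chains. Langerhans cells are antigen-presenting cells of the epidermis, related to macrophages by origin, and hold langerin, the C-type lectin encoded by CD207, in their Birbeck granules. In whole skin, fewer cells of a type and less RNA per cell cannot be told apart.

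Reads assigned to named genes ran from 12648817 to 22085079 per library, and 15778 genes had enough reads to be tested. Black replicate 1 stood apart: its 6 tested hair shaft and root sheath markers stood at -3.32 log2 units relative to their mean over the libraries, with a summed level of 860.2 CPM (reads of a gene scaled to the library size), against 13190 to 17929 CPM in the other 5. LOC108634721, a translation initiation factor gene with 1 of its 3 transcripts described as Y-linked-like and 2 as X-linked-like, had 1 read in black replicate 1 and 0 in black replicate 3, against 688 to 934 in the other 4 libraries, and the part of the animals' sex in the results was not tested. Values for the tested members and medians of the gene lists are therefore given with and without black replicate 1.

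The 8 macrophage and C1q markers with enough reads to be tested were highest in black replicate 1 and next highest in black replicate 2, and 6 of them were lowest in black replicate 3. MARCO, with few reads, did not share this order. CD207 showed another order, with its lowest level in black replicate 1 and its highest in white replicate 4. Adjusted over all genes tested, 0 of the 9 tested members passed edgeR's quasi-likelihood test of black-coated over white-coated skin at an adjusted p of 0.05. The share of all genes that passed was 0.0%, with 536 genes at an unadjusted p under 0.05. DESeq2 called 78 genes (0.494%) and limma-voom 0, and neither called a member.

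**Figure D1:**
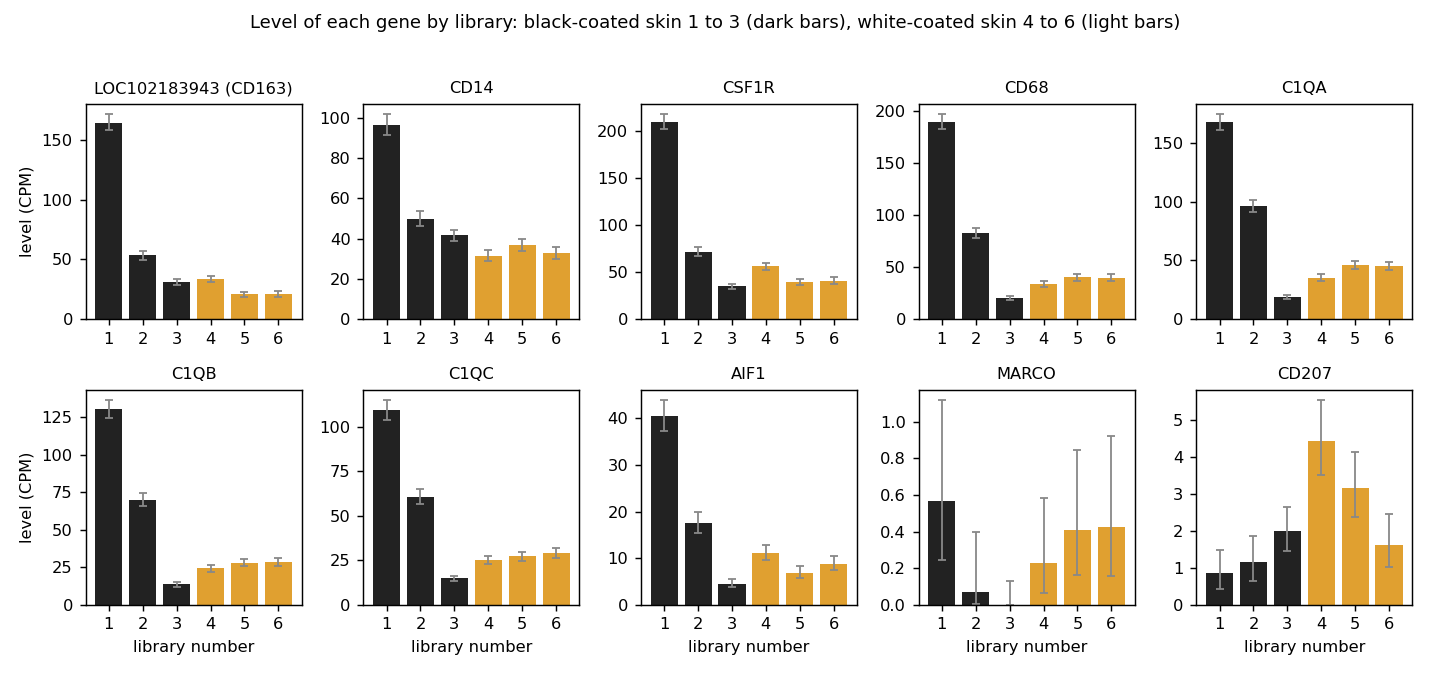
Level of each of the 10 genes in CPM (vertical axis) in the 3 black-coated libraries (dark bars, 1 to 3) and the 3 white-coated libraries (light bars, 4 to 6), with exact 95% Poisson intervals that cover counting error only and, for the count of 0 of MARCO, the floor of 3 reads. The macrophage and C1q genes peak in black replicate 1, while CD207 is highest in white replicate 4, at 4.44 CPM.

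Among receptors of the macrophage surface, CSF1R, the receptor for the growth factors CSF1 and IL34, reached 209.7, 71.6 and 34.6 CPM in the black replicates, in the order 1 to 3, and 55.8, 39.1 and 40.8 CPM in the white replicates, in the order 4 to 6. The level in black replicate 1 was 4.34 times the mean of the other 5 libraries, and black replicate 3 was below every white library, so the groups overlapped. The log2 fold change was 1.22 (SE 0.61, edgeR adjusted p = 1.0), and 0.23 (SE 0.32) without black replicate 1.

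LOC102183943, the CD163 gene, encodes the receptor through which macrophages take up haemoglobin bound to haptoglobin. It reached 164.7, 53.4 and 30.9 CPM in the black replicates and 33.3, 20.6 and 20.6 CPM in the white replicates. Black replicate 3 lay below white replicate 4 and above the other two white libraries. Its log2 fold change, 1.74 (SE 0.61, unadjusted p = 0.0244, edgeR adjusted p = 1.0), had the largest absolute size among the 9 tested members. Without black replicate 1 it was 0.76 (SE 0.31, unadjusted p = 0.0399, edgeR adjusted p = 0.473).

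CD14, the co-receptor that hands bacterial lipopolysaccharide to TLR4, stood at 96.5, 49.7 and 41.6 CPM in the black replicates and at 31.6, 36.7 and 32.7 CPM in the white replicates. It was the only one of the 9 tested members whose groups did not overlap, as held, higher in black-coated skin, for 3.81% of all genes tested (and, lower in black-coated skin, for 4.99%). The log2 fold change was 0.89 (SE 0.33, unadjusted p = 0.0285, edgeR adjusted p = 1.0). Leaving out black replicate 1 gave 0.44 (SE 0.17, unadjusted p = 0.0315, edgeR adjusted p = 0.454). CD14 also varied least: its highest library was 3.05 times its lowest, against 6.06 to 9.57 times for the other 7 tested macrophage and C1q genes.

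CD68, a glycoprotein of macrophage lysosomes, stood at 189.8, 83.0 and 20.2 CPM in the black replicates and at 33.6, 40.1 and 39.8 CPM in the white replicates. AIF1, an actin-binding protein of macrophages, stood at 40.4, 17.6 and 4.55 CPM against 11.2, 6.87 and 8.86 CPM. For both genes black replicates 1 and 2 lay above every white library and black replicate 3 below every one. The log2 fold change was 1.37 (SE 0.68) for CD68 and 1.21 (SE 0.70) for AIF1, and 0.44 (SE 0.57) and 0.29 (SE 0.54) without black replicate 1.

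MARCO, a scavenger receptor of some tissue macrophages, had 8, 1 and 0 reads in the black replicates and 4, 7 and 6 in the white replicates. With 26 reads in all it did not pass the filter on low counts. A count of 0 in black replicate 3 allows a level of up to 0.130 CPM with a floor of 3 reads, and no difference was detectable at this depth.

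The C1q genes repeated the pattern of CD68. C1QA stood at 167.5, 96.4 and 18.4 CPM in the black replicates and at 35.1, 46.1 and 44.9 CPM in the white replicates. C1QB stood at 130.1, 69.8 and 13.6 CPM against 24.2, 28.1 and 28.3 CPM. C1QC stood at 109.2, 60.7 and 14.8 CPM against 24.99, 27.3 and 29.0 CPM. Each chain was above every white library in black replicates 1 and 2 and below every one in black replicate 3. In CPM, black replicate 2 was 5.25 times black replicate 3 for C1QA, 5.13 times for C1QB and 4.11 times for C1QC, so the black libraries differed among themselves by more than the group means did, whose ratios were 2.24, 2.64 and 2.27.

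The log2 fold changes of the chains were 1.16 (SE 0.67) for C1QA, 1.40 (SE 0.68) for C1QB and 1.18 (SE 0.62) for C1QC, none of which passed (edgeR adjusted p = 1.0 for each). Without black replicate 1 they were 0.44, 0.63 and 0.47, with unadjusted edgeR p values of 0.546, 0.382 and 0.430. Black replicate 3 was the lowest library for each chain, and leaving it out gave 1.65, 1.89 and 1.65. The unadjusted edgeR p values were then 9.03e-04, 4.94e-04 and 8.40e-04, and the edgeR adjusted p was 0.456 for each. These low unadjusted values follow in part from leaving out the lowest library. The higher mean of black-coated skin came from 2 of its 3 libraries. In the reference annotation the 3 chains are neighbours, C1QA next to C1QC and C1QB separated from C1QC by 1 gene.

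Over the 8 tested macrophage and C1q genes the median log2 fold change was 1.21, against 0.02 over all genes tested, and 8 of 8 were above 0, against 53.0%. At an unadjusted p under 0.05, LOC102183943 and CD14 were higher in black-coated skin, as were 1.65% of all genes, while 1.75% were lower. Black replicate 1 held the highest level of 8 of the 8, against 30.3% of all genes. In 4 of the 8 (LOC102183943, CSF1R, CD68 and AIF1) it reached at least 2 times the highest of the other 5 libraries, against 4.93% of all genes. Black replicate 3 held the lowest level of 6 of the 8, against 18.2%. Without black replicate 1 the median was 0.44 and 8 of 8 were above 0, against 49.7% of all genes. For the 6 genes lowest in black replicate 3, only black replicate 2 of the remaining black libraries then lay above the white ones. In that fit 0 members passed, against 0.0999% of all genes.

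**Figure D2:**
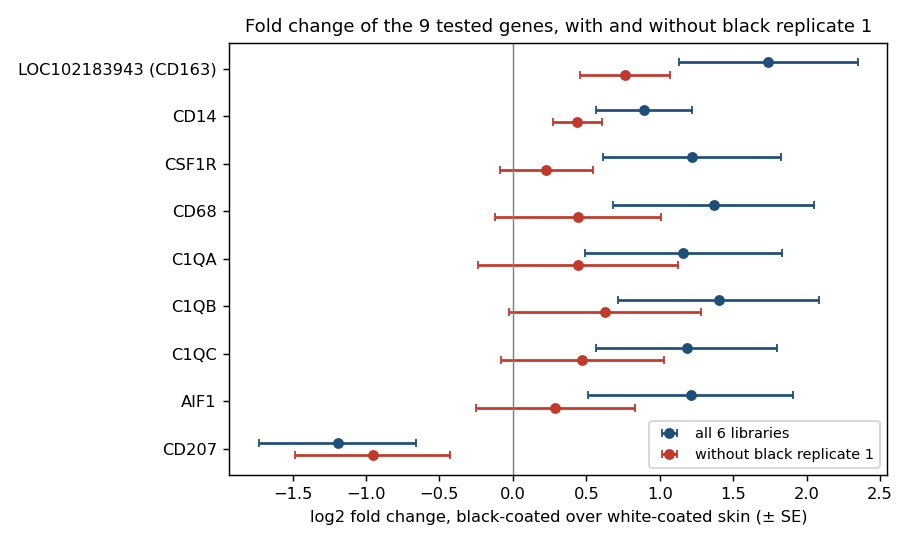
Log2 fold change of black-coated over white-coated skin (horizontal axis, points with SE) for the 9 tested genes, fitted by edgeR with all 6 libraries and without black replicate 1. The 8 macrophage and C1q genes lie above 0 and CD207 below 0 in both fits, and LOC102183943 moves from 1.74 to 0.76.

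Levels of different genes were compared per transcript length, in the authors' length-scaled values (FPKM, fragments per kilobase of transcript, scaled to depth), summed over the transcripts of a gene. In white-coated skin C1QA was the most abundant of the 10, at 41.6 ± 4.78 FPKM (SD, n = 3), followed by C1QC at 22.0 ± 1.17, C1QB at 19.6 ± 1.41 and CD68 at 17.4 ± 0.848. AIF1 stood at 12.8 ± 3.61, CSF1R at 8.68 ± 2.48, CD14 at 8.23 ± 0.632 and LOC102183943 at 4.76 ± 1.58 FPKM. CD207 stood at 0.847 ± 0.434 and MARCO at 0.135 ± 0.0870 FPKM. C1QC was above C1QB in each white library, whereas CSF1R was above CD14 in white replicate 4 and below it in white replicates 5 and 6.

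In black-coated skin the FPKM levels were 96.6 ± 82.8 for C1QA, 55.3 ± 49.6 for C1QB, 53.1 ± 44.4 for C1QC, 49.2 ± 47.9 for CD68 and 31.1 ± 29.4 for AIF1 (SD, n = 3). CSF1R stood at 22.0 ± 21.2, LOC102183943 at 17.3 ± 16.6, CD14 at 15.96 ± 8.95, CD207 at 0.390 ± 0.153 and MARCO at 0.103 ± 0.178. The SDs were nearly as large as the means for 7 of the macrophage and C1q genes, which reflects the differences between libraries that these genes share. The top place was steady: C1QA was the most abundant of the 10 in each black library, at 1.69 to 1.85 times the FPKM of C1QB. The order below it was not, as CD14 ranked 8 in black replicate 1, 7 in black replicate 2 and 3 in black replicate 3.

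The chains of C1q kept nearly constant proportions while their level varied. C1QA made up 45.2% to 51.3% of the summed C1q FPKM in the 6 libraries, C1QB 23.1% to 27.6% and C1QC 25.2% to 30.1%. Of the 28 pairs of these genes, the CPM ratio of CD68 to C1QB varied least per library, from 1.19 to 1.49 (1.25 times from lowest to highest). The level of C1QB itself spanned 9.57 times. CSF1R, LOC102183943 and CD14 followed C1q less closely. The CPM ratio of CSF1R to C1QB spanned 2.48 times and that of LOC102183943 to C1QB 3.13 times. The ratio of C1QA to CD14 varied most of the pairs, spanning 4.39 times, from 0.442 in black replicate 3 to 1.94 in black replicate 2.

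All 28 pairs among the 8 tested macrophage and C1q genes were compared by their CPM ratio in each library, with an exact two-sided permutation test of black against white whose smallest possible p is 0.1. In 3 of the 28 pairs, which share genes and libraries, the groups did not overlap, which corresponds to that p and arises in 2 of the 20 arrangements of the libraries. CSF1R over LOC102183943 was 1.27, 1.34 and 1.12 in black-coated and 1.68, 1.90 and 1.98 in white-coated skin. LOC102183943 over AIF1 was 4.07, 3.04 and 6.80 against 2.97, 2.99 and 2.33. C1QA over C1QB was 1.29, 1.38 and 1.35 against 1.45, 1.64 and 1.59. None passed, as the lowest exact p adjusted over the 28 pairs was 0.933.

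**Figure D3:**
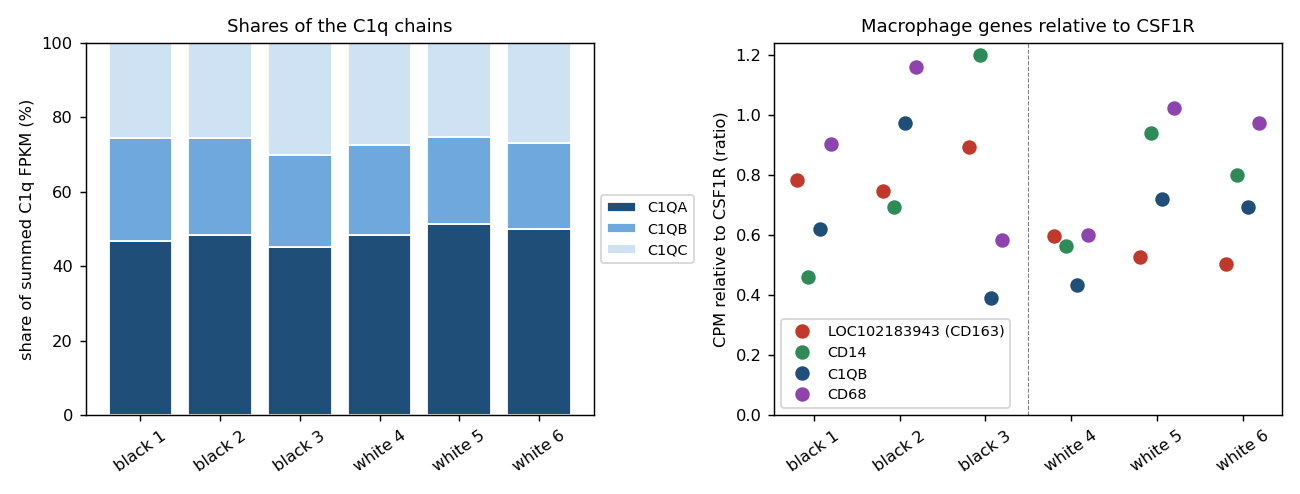
Left, share of each chain in the summed C1q FPKM (percent) per library, between 45.2% and 51.3% for C1QA. Right, CPM of LOC102183943, CD14, C1QB and CD68 relative to CSF1R per library. LOC102183943 is higher in the 3 black libraries (0.746 to 0.894) than in the 3 white ones (0.505 to 0.596), and the other genes overlap. This pair is among the 3 of 28 compared whose groups did not overlap, and it did not pass (exact permutation adjusted p = 0.933).

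CD207 was detected at a low level in every library, with 12, 16 and 46 reads in black replicates 1 to 3 and 78, 54 and 23 in white replicates 4 to 6. These gave 0.851 CPM (95% exact Poisson interval 0.440 to 1.49), 1.15 CPM (0.656 to 1.86) and 1.99 CPM (1.46 to 2.66) in the black replicates. In the white replicates they gave 4.44 CPM (3.51 to 5.54), 3.17 CPM (2.38 to 4.14) and 1.63 CPM (1.03 to 2.45), where the intervals cover counting error only. White replicate 6 lay below black replicate 3, so the groups overlapped. The log2 fold change was -1.19 (SE 0.53, unadjusted p = 0.0594, edgeR adjusted p = 1.0), and -0.96 (SE 0.53, edgeR adjusted p = 0.598) without black replicate 1.

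The macrophage and C1q genes were set against CD207 within each library. LOC102183943 had 193.4, 46.6 and 15.5 times the CPM of CD207 in black replicates 1 to 3, and 7.50, 6.48 and 12.7 times in white replicates 4 to 6. C1QB had 152.8, 60.8 and 6.83 times against 5.46, 8.87 and 17.4 times. On the scale of log2(CPM + 0.5), the mean ratio to CD207 was higher in black-coated skin for 9 of 9 genes, but also for 97.1% of all genes tested, as all share the lower mean level of CD207 as denominator. The difference ran from 0.60 for MARCO, whose own mean CPM was lower in black-coated skin, to 2.34 for LOC102183943, with a median of 1.72 against 0.92 over all genes tested. The groups did not overlap, as for 19.5% of all genes tested, for LOC102183943 (5.21 ± 1.65 against 2.87 ± 0.40, SD, n = 3) and CD14 (5.06 ± 1.05 against 3.33 ± 0.63). Both had an exact two-sided permutation p of 0.1, the smallest that 3 against 3 allows, with an adjusted p of 0.338 over the 9 genes, and the other 7 had an exact p of 0.2 to 0.5. The median difference over the 9 genes was 0.89 with black replicate 1 left out and 2.75 with black replicate 3 left out. The median log2 fold change of the 8 tested genes minus that of CD207 was 2.41, and 1.40 without black replicate 1.

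The mean profile of 9 keratinocyte markers of the epidermis, where Langerhans cells lie, was near that of CD207, though single markers differed. Relative to its mean over the 6 libraries, CD207 was at -1.10, -0.69 and 0.07 on the log2 scale in the black libraries and at 1.20, 0.73 and -0.21 in the white ones. The 9 keratinocyte markers, all tested, stood at -1.38, -0.71 and 0.005 and at 1.32, 0.75 and 0.02. CD207 and the mean of the keratinocyte list thus differed by at most 0.28 log2 units in any library. The counting interval of CD207 in black replicate 1, 0.440 to 1.49 CPM, is wider than that, so likeness this close cannot be resolved. Summed, the keratinocyte markers stood at 1980 to 9738 CPM in black-coated and 5056 to 10828 CPM in white-coated skin, and none was at 0 in any library. Of the 9, 8 had a log2 fold change below 0 and 1 above (median -0.62, and -0.11 without black replicate 1, with 4 above 0). At an unadjusted p under 0.05, 3 were lower, as were 1.75% of all genes, and 0 were called. They did not all share the profile of the list: KRT10, a keratin of suprabasal keratinocytes, stood at 90.8, 25.9 and 36.2 CPM against 670.2, 385.6 and 139 CPM and was lowest in black replicate 2, whereas KRT14, a keratin of basal keratinocytes, had a log2 fold change of -0.02 (SE 0.66). KRT14, TP63 and DSG3 were highest in black replicate 3, and the other listed keratinocyte markers in a white library. The part of keratinocyte content in the difference of CD207 was not tested.

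Genes whose profile over the 6 libraries was most like that of CD207 were sought among 11041 tested genes with a symbol and a mean of at least 5 CPM, by the root mean square difference of the centred log2 CPM values. The 10 nearest were SOSTDC1, IL36RN, ADGRF2, CLDN23, PDZK1, CAPNS2, KPRP, STX19, SLC39A2 and KRT2. The nearest, SOSTDC1, which encodes an antagonist of BMP and Wnt signals, stood at 10.8, 11.5 and 26.3 CPM in black-coated and at 36.7, 38.2 and 21.1 CPM in white-coated skin, a distance of 0.235 log2 units. IL36RN, the receptor antagonist of interleukin 36 made by keratinocytes, followed at 0.247, and KPRP, a proline-rich protein of keratinocytes, at 0.289. CD207 lay 1.57 log2 units from the mean profile of the 8 macrophage and C1q genes. Those 8 lay 0.159 (C1QC) to 0.491 (CD14) from it. That mean was built from the same 8 genes, which draws them towards it, so the contrast is no test. The distances of CD207, at 12 to 78 reads, to this mean and to its 10 nearest genes also carry counting error.

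Other genes associated with Langerhans cells lay on both sides of 0. Of 13 listed, 12 were tested, 9 with a log2 fold change above 0 and 3 below, with a median of 0.21 and 0 called. Leaving out black replicate 1 turned the median to -0.06, with 5 of 12 above 0. EPCAM and CDH1, adhesion proteins that keratinocytes also express, had log2 fold changes of -0.34 (SE 0.21) and -0.34 (SE 0.44), and of -0.18 and -0.0037 without that library. LY75, an endocytic receptor of dendritic cells found here as LOC102168948, had 0.40 (SE 0.39), and -0.12 (SE 0.24) without it. RUNX3, at a low level of 0.646 to 2.17 CPM, had the largest change of the list and the opposite sign to CD207. Its log2 fold change was 0.92 (SE 0.47), and 0.93 (SE 0.52) without black replicate 1. The listed genes together stood at 1017 to 1072 CPM in black-coated and 981.5 to 1079 CPM in white-coated skin.

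**Figure D4:**
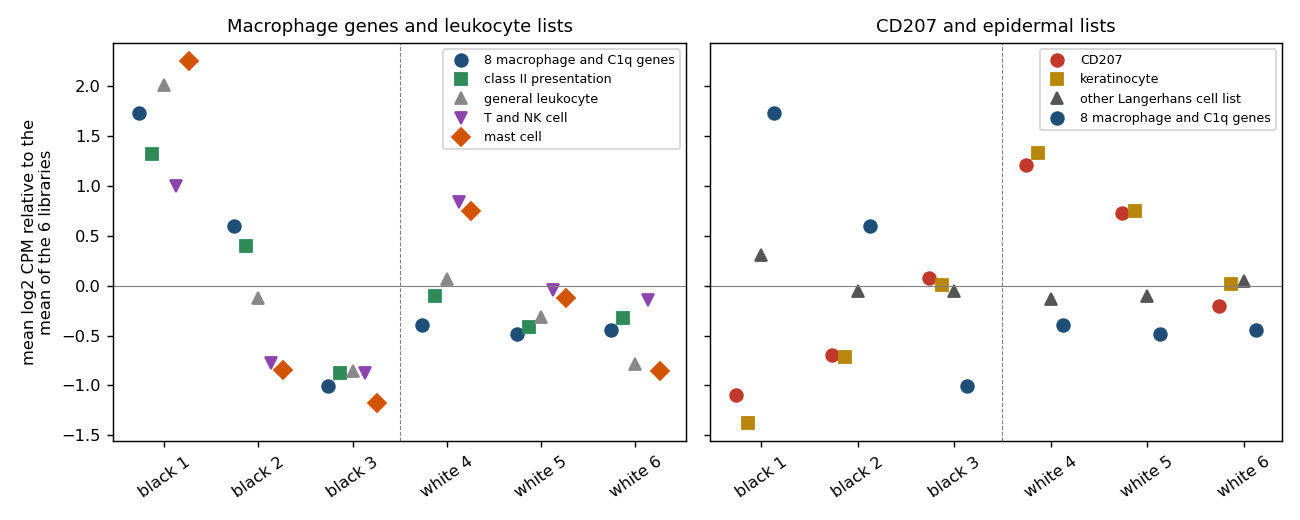
Mean log2 CPM of gene lists and of CD207 in each library relative to the mean of the 6 libraries (vertical axis). Left, the 8 tested macrophage and C1q genes at 0.60 in black replicate 2, where the T and NK cell list lies at -0.77 and the mast cell list at -0.84. Right, CD207 beside the keratinocyte list, from which it differs by at most 0.28 log2 units, less than the counting interval of CD207 in black replicate 1.

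The genes, outside the members, nearest to the mean profile of the 8 macrophage and C1q genes were CD53, CD74, FCER1G, PIK3R5, SPI1, FGD2, B4GALNT1, EDIL3, ASRGL1 and TIMD4. CD53, a tetraspanin of leukocytes that is also in the general leukocyte list, was nearest at 0.156 log2 units, with 59.2, 24.1 and 8.44 CPM in the black replicates and 16.2, 14.04 and 11.5 CPM in the white ones. CD74, the invariant chain of MHC class II, followed at 0.160, with 1581, 610.8 and 232.4 CPM against 443.9, 317.0 and 333.4 CPM. SPI1, the transcription factor PU.1 of the myeloid lineage, stood at 44.8, 24.4 and 5.50 CPM against 10.8, 9.63 and 8.57 CPM (log2 fold change 1.36, SE 0.66, edgeR adjusted p = 1.0, and 0.62, SE 0.56, without black replicate 1).

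Of the growth factors and transcription factors of macrophages, 11 of 12 listed genes were tested, 8 with a log2 fold change above 0, with a median of 0.30 and 0 called. With black replicate 1 left out, 5 of 11 were above 0 and the median was -0.0018. The ligands of CSF1R varied less than their receptor: CSF1 stood at 58.3, 59.5 and 44.5 CPM in black-coated and 55.0, 39.8 and 56.0 CPM in white-coated skin, and IL34 at 20.7, 19.2 and 13.9 against 31.0, 18.7 and 17.4 CPM. CSF2, the growth factor GM-CSF, had 0 reads in all 6 libraries, as had LEP of the adipocyte list and ALAS2 of the erythroid list.

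Among other surface and lysosome genes of macrophages, 25 of 28 listed genes were found and 22 tested, of which 22 had a log2 fold change above 0 (median 1.16) and 19 were highest in black replicate 1, with 0 called. Leaving out that library, the median was 0.22 and 14 were above 0. The 3 with an unadjusted p under 0.05, all higher, were ADGRE1, ITGAM and LGMN, against 1.65% of all genes. LGMN, a lysosomal protease, stood at 277.7, 114.7 and 65.6 CPM in the black replicates and at 45.2, 40.1 and 48.7 CPM in the white ones (log2 fold change 1.77, SE 0.50, unadjusted p = 0.00952, edgeR adjusted p = 1.0), and its groups did not overlap, as for 3.81% of all genes. Its log2 fold change without black replicate 1 was 1.01 (SE 0.24, edgeR adjusted p = 0.291). ITGAM, an integrin chain of the complement receptor CR3, stood at 48.5, 9.04 and 3.33 against 4.72, 4.29 and 4.46 CPM, and its log2 fold change went from 2.17 to 0.45 without black replicate 1. ADGRE1, known in mouse as F4/80, stood at 5.25, 4.09 and 0.260 against 0.114, 0.646 and 0.0708 CPM. Its log2 fold change was 3.46 (SE 1.22), and 2.87 (SE 1.25) without black replicate 1. White replicates 4 and 6 were below the floor of 3 reads, so these sizes are uncertain.

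Of the partners of CD14 in the response to lipopolysaccharide, 9 of 10 were tested, 7 with a log2 fold change above 0 (median 0.28) and 0 called. Leaving out black replicate 1 turned the median to -0.07, with 4 of 9 above 0. LBP, which carries lipopolysaccharide to CD14, was the member with an unadjusted p under 0.05 (0.0122, edgeR adjusted p = 1.0). It stood at 4.40, 2.37 and 0.866 CPM in black-coated and 0, 0.117 and 0.496 CPM in white-coated skin. Its log2 fold change was 3.65 (SE 1.09), and 3.0 (SE 1.01) without black replicate 1. White replicates 4 and 5 were below the floor of 3 reads, so these sizes are uncertain. TLR4, the signalling receptor, had a log2 fold change of -0.11 (SE 0.22).

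Other complement genes, of which 20 of 21 were found and 19 tested, had a median log2 fold change of 0.58, with 16 above 0, 15 highest in black replicate 1 and 0 called. Without black replicate 1 the median was -0.01, with 9 of 19 above 0. At an unadjusted p under 0.05, 4 of 19 were higher in black-coated skin and 0 lower, against 1.65% and 1.75% of all genes. C2, which with C4 forms the C3 convertase downstream of C1q, stood at 79.5, 25.7 and 24.6 CPM in the black replicates and at 13.3, 5.99 and 9.35 CPM in the white ones (log2 fold change 2.18, SE 0.55, unadjusted p = 0.00548, edgeR adjusted p = 1.0), without overlap, as for 3.81% of all genes. Its log2 fold change was 1.40 (SE 0.31, edgeR adjusted p = 0.266) without black replicate 1. CFP, or properdin, which stabilises the alternative convertase, stood at 67.0, 19.5 and 6.06 against 6.72, 7.28 and 8.01 CPM, with log2 fold changes of 2.07 and, without that library, 0.79. CFI, the protease factor I, and CALR, calreticulin, which binds C1q, had log2 fold changes of 1.34 (SE 0.51) and 0.58 (SE 0.23), both without overlap between the groups, and of 0.73 (SE 0.41) and 0.39 (SE 0.17) without black replicate 1.

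The 8 class II presentation genes found, of 9 listed, had a median log2 fold change of 1.02, all above 0, with 0 called, and a median of 0.16 without black replicate 1. Of 9 dendritic cell genes, 7 were tested, with a median of 0.33 and of -0.76 without black replicate 1.

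The lists of other leukocyte markers were above their mean in black replicate 1, as the macrophage genes were, and below it in black replicate 2. Single markers differed: CD53 of the general leukocyte list was above every white library in black replicate 2 as well. Relative to their mean over the libraries, the 8 macrophage and C1q genes were at 1.73 and 0.60 on the log2 scale in black replicates 1 and 2, the 9 tested T and NK cell markers at 1.0 and -0.77, the 6 tested mast cell markers at 2.25 and -0.84, and the 4 general leukocyte markers at 2.01 and -0.12. Their median log2 fold changes were -0.09, 1.0 and 1.13 for the T and NK cell, mast cell and general leukocyte lists, with 0 called, and -0.87, -1.36 and -0.17 without black replicate 1. PTPRC, the leukocyte antigen CD45, stood at 77.0, 8.75 and 8.62 CPM in the black replicates and at 16.7, 11.6 and 6.09 CPM in the white ones. Summed, the T and NK cell markers stood at 25.8 to 87.8 CPM in black-coated and 36.4 to 72.6 CPM in white-coated skin. The mast cell markers stood at 59.6 to 321.2 against 46.1 to 123.4 CPM, and the general leukocyte markers at 60.9 to 440.8 against 68.0 to 117.8 CPM, and no marker of these lists was at 0 in all libraries. The part of overall leukocyte content in the macrophage result was not tested.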

How the data were processed

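The authors deposited read counts per transcript row and FPKM values for the same rows, per the file headers. Bowtie2 2.0.6, HISAT2 and Cufflinks appear, with no role stated, in the submitters' processing notes. The counting program, genome build, annotation and use of strand were not stated in what was used here, and reads of overlapping genes cannot be told apart. Transcript rows of a gene held nearly the same counts, so each gene was represented by its row of highest total, whereas FPKM was divided between rows and was summed per gene. Of 53266 rows, 189 without a gene name (at most 0.0675% of a library's reads) and 1770 of transfer RNA (at most 4.67e-04%) were left out. The number of unused sample columns was 0.

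The deposited counts went into edgeR 4.0.16, run in R 4.3.3 (filterByExpr, TMM factors from 0.872 to 1.12, robust quasi-likelihood test) with Benjamini-Hochberg adjustment over all 15778 genes tested. The biological coefficient of variation was 37.3%. CPM are counts relative to TMM-scaled library sizes, log2 CPM used a prior count of 1, and the SE of a log2 fold change is the fold change over the root of the F statistic. Ratios to CD207 were taken as log2(CPM + 0.5). Alternatives used DESeq2 1.42.0, limma 3.58.1, other scalings, filters and FPKM pseudocounts, the median transcript row, and each library left out in turn. The tests were checked on simulated counts drawn independently for each gene and library. That simulation held no outlying library such as black replicate 1, so it does not cover that feature of the data.

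The members and the gene lists were chosen with earlier results of these data known, and the comparison of all gene pairs and the comparison of CD207 with the keratinocyte list were added after the values were seen. Named were the 10 members, up to 4 members of each pathway list, by size, at an unadjusted p under 0.05 (0 genes being called), list members without reads, PTPRC, and the 10 genes nearest in profile. The other genes named were chosen after their values were seen. Of 204 distinct listed genes, 186 were found, 12 of them by description. The order of genes along the chromosome is that of the RefSeq table for ARS1.2.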

Additional observations from a re-analysis of the deposited data

How the results depend on the processing

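No paired analysis was possible because the groups share no replicate number. The count of called members was 0 in every setting run. The count of called genes, 0 in edgeR, was 78 in DESeq2 and ran from 0 to 16 when libraries were left out in turn, with 16 without black replicate 1, 6 without black replicate 2 and 1 without white replicate 4. Each of the 8 tested macrophage and C1q genes kept a log2 fold change above 0 in 17 of 17 alternatives, and CD207 one below 0 in 16 of 16. For the 8 genes, 11 of the 17 alternatives refitted the same 6 libraries. The 6 that left 1 library out each kept black replicate 1 or 2, the highest libraries of these genes. The shared sign is therefore no independent support, and black replicate 3 was the lowest library for 6 of the 8. CD207 had no value at a minimum mean FPKM of 1, which it did not reach. Their sizes depended on single libraries. The median of the 8 ran from 0.44 without black replicate 1 to 1.67 without black replicate 3, and was 0.82 in limma-voom and 0.84 on log2(FPKM + 1), against 1.21. Its difference from CD207 ran from 1.40 without black replicate 1 to 3.29 without black replicate 3, against 2.41. The difference fell to 1.23 on log2(FPKM + 1), a scale on which low levels such as that of CD207 change less. With library totals in place of TMM the median of the 8 was 1.29. CD207, at 12 to 78 reads, and MARCO, at 0 to 8 reads, are limited by depth.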

Other observations

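A pair of further genes of the lists are given as values, chosen after their values were seen. C3, the central complement protein, reached 3535 CPM in black replicate 1, with 117.6 to 909.7 CPM in the other 5 libraries (the highest of these was white replicate 4). GPNMB, a glycoprotein that both macrophages and melanocytes express, had another order than the macrophage genes: its CPM was 286.4, 910.7 and 1211 over the black libraries in order and 272.1, 439.3 and 419.3 over the white ones (log2 fold change 1.09, SE 0.51, edgeR adjusted p = 1.0, and 1.49, SE 0.26, edgeR adjusted p = 0.175, without black replicate 1). The 6 melanocyte markers stood at 38.1, 872.9 and 1013 CPM, summed, in the black replicates and at 4.32 to 6.26 CPM in the white ones.

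The remaining marker lists are given by their median log2 fold change with all libraries and then without black replicate 1. The median was 0.21 and -0.48 for 3 tested of 8 B and plasma cell genes, 0.80 and 0.55 for 5 of 8 neutrophil genes, and 0.01 and -0.28 for 6 of 6 endothelial genes. It was -0.22 and -0.16 for 6 of 6 fibroblast genes, 0.38 and -0.51 for 3 of 5 adipocyte genes, 0.37 and 0.23 for 3 of 6 skeletal muscle genes, and -0.34 and 0.20 for 1 of 6 erythroid genes. For 6 of 9 hair shaft and root sheath genes it was -0.38 and 0.16, and for the 6 melanocyte genes 8.96 and 9.50. The sign thus turned for the B and plasma cell, endothelial, adipocyte, erythroid and hair lists.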
